A study of Mus musculus with 2 samples.

Results

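The 36 genes described here encode the main protein-folding machinery of the mouse cytosol and mitochondrion. They were chosen by name, as a list of chaperones, their cochaperones and the heat shock factors, with earlier results of these data known. Rows of the deposited matrices held 35 of the 36 genes, of 26893 named genes in all; Cct6a was not analysed here. The list falls into 5 role groups. The heat-inducible group has 12 genes (Hspa1a, Hspa1b, Hsph1, Hsp90aa1, Hspb1, Cryab, Dnajb1, Dnajb4, Dnaja1, Bag3, Chordc1 and Ahsa1). The constitutive cytosolic group has 11 (Hspa8, Hspa4, Hspa4l, Hspa14, Hsp90ab1, Dnaja2, Dnajb6, Ptges3, St13, Fkbp4 and Cdc37). The cytosolic chaperonin TRiC has 8 (Tcp1, Cct2, Cct3, Cct4, Cct5, Cct6a, Cct7 and Cct8). The mitochondrial group has 3 (Hspd1, Hspe1 and Hspa9), and the heat shock factors are Hsf1 and Hsf2.

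The study asked what 24 h of RNA interference against Chd4, an ATP-dependent remodeller of the NuRD complex, does to single undifferentiated spermatogonia. Thy1-positive cells were taken by magnetic sorting from adult C57BL/6 mouse testes and grown, in serum-free medium with GDNF and bFGF, on SNL76/7 mouse embryonic fibroblasts whose division had been stopped with mitomycin. The cells were lifted off the feeders and received, on plastic, 75 pmol of siRNA with 2 uL of Lipofectamine. The control group received a non-targeting siRNA and the other group a Chd4 siRNA, so both groups went through the same sorting, culture and lipid transfection. In each group, cells from 3 biological replicates were combined in equal number into 1 tube, and 1 droplet library was made per group. No untransfected library was analysed here, and a knockdown by siRNA leaves part of the target's RNA. With 1 library per group no test between groups is possible. The 95% intervals given below cover the error of counting UMIs and leave out the spread between cultures.

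Chaperones of the Hsp70 family bind exposed stretches of unfolded chains under the control of J-domain partners, which drive ATP hydrolysis, and of nucleotide exchange factors, which release the client. Hsp90 proteins take over partly folded clients such as kinases and steroid receptors, and TRiC encloses actin, tubulin and other chains in a barrel to fold them. Part of this set is made at all times and part is raised when Hsf1 is freed by unfolded proteins. Mouse spermatogenesis runs below body temperature, and germ cells are known to respond to heat.

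Levels are given as CPM, the unique molecular identifiers (UMIs, each marking 1 captured RNA 3′ end) of a gene per 1000000 UMIs in named genes, summed over the cells of a class; they are not divided by transcript length. The control library held 816 cells with a median of 15626 UMIs, and the Chd4 siRNA library 858 cells with a median of 16150. Cells were put in a germ class by Dazl and Ddx4 and in a feeder class by Col1a1 and Fn1, which gave 723 and 755 germ cells and 78 and 88 feeder cells, with 15 unassigned cells in each library. All 14 germ cell markers were higher in the germ class and all 17 measured fibroblast markers higher in the feeder class in both libraries. Dazl, Ddx4, Col1a1 and Fn1 are among these markers and set the classes, so only the other markers check them. The feeder class also carried the Sertoli cell gene Sox9, the main part of a summed Sertoli marker level of 227 and 211 CPM, while 2 of the 6 Sertoli markers stood at 0 there. Median depth was 15316 and 15598 UMIs per germ cell and 38665 and 41452 per feeder cell. The target was lower in both classes: Chd4 went from 537 to 253 CPM in the germ class (log2 -1.08, -1.15 to -1.02) and from 154 to 51.9 CPM in the feeder class (log2 -1.57, -1.82 to -1.33).

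In the germ class the chaperone list as a whole took a slightly larger part of the RNA after Chd4 siRNA, led by the 7 measured TRiC subunits and Hspa8. Its 35 genes summed to 14923 CPM with control siRNA and 16326 CPM with Chd4 siRNA. Of these, 32 had at least 200 UMIs over both libraries. Their median log2 ratio, Chd4 siRNA over control, was 0.12, beside 0.05 over all 8248 genes with that many UMIs. Past 1.2-fold, 2 members were higher (Hspa8 and Cct4) and 1 was lower (Cryab); among all those genes 8.28% were higher and 5.7% lower past that fold, so the members' counts lie near the background. Intervals lay wholly above 0 for 18 of the 32, included 0 for 13 and lay below 0 for 1, St13; over all 8248 genes 18.7% lay above 0 and 8.47% below, but members have more UMIs than most genes and so narrower intervals. Among genes with at least 2000 UMIs, where counting error is small, 1.95% of 1847 genes were higher past 1.2-fold and 4.76% lower. At that depth 24 members were left, 2 of them higher and 0 lower, with a median of 0.15 beside 0.05 for all genes. Of these 24, 18 had intervals above 0 and 1 below, where 36.9% of the 1847 genes lay above 0 and 14.5% below.

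**Figure D1:**
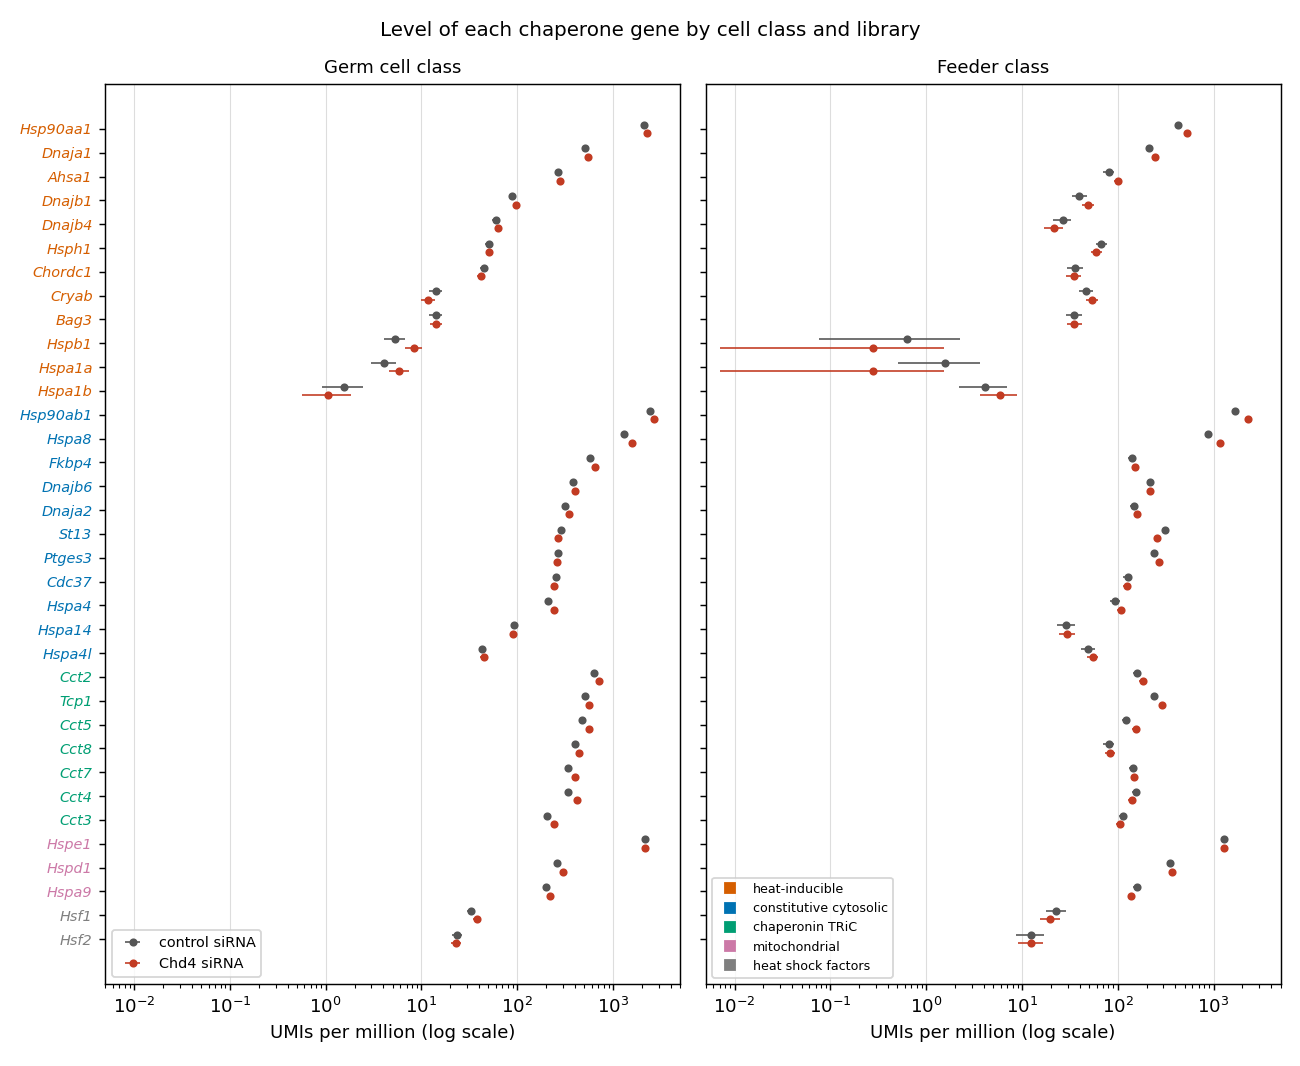
Level of each of the 35 measured chaperone genes in CPM (log axis) in the germ cell class and the feeder class; grey points are the control siRNA library, red points the Chd4 siRNA library, and bars are 95% counting intervals. The library pairs lie close together for nearly every gene, while Hspa1a, Hspa1b and Hspb1 lie below 10 CPM in both classes.

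Hspa1a, Hspa1b and Hspb1 were low in both classes and both libraries, below 10 CPM. Hspa1a, the stress-inducible Hsp70, had 47 UMIs in control germ cells (4.06 CPM) and 71 in Chd4 siRNA germ cells (5.81 CPM). Its neighbour Hspa1b, which encodes a nearly identical protein, had 18 and 13 UMIs (1.56 and 1.06 CPM). Hspb1, the small heat shock protein HSP25, had 61 and 101 UMIs (5.27 and 8.27 CPM). All 3 fell short of the 200 UMI minimum, and the log2 ratios were 0.52 (-0.04 to 1.08), -0.55 (-1.70 to 0.56) and 0.65 (0.18 to 1.13). For Hspa1a a single Chd4 siRNA germ cell of 36946 UMIs held 19 of the 71 UMIs, and without the cell of each library that held most of its UMIs the log2 ratio was 0.23. Hspb1 was spread over more cells, and the same removal gave 0.71; 7.06% of the 90-base words at its 3′ end also occur in the pseudogene Hsp25-ps1.

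In feeder cells Hspa1a had 5 and 1 UMIs (1.58 and 0.28 CPM) and Hspb1 had 2 and 1 UMIs. Hspa1b was instead higher there than in germ cells, with 13 and 21 UMIs (4.10 and 5.83 CPM), of which 1 Chd4 siRNA cell held 9. Its log2 ratio, feeder over germ, was 1.40 (0.25 to 2.51) with control siRNA and 2.45 (1.39 to 3.57) with Chd4 siRNA. It had a UMI in 14.1% and 7.95% of feeder cells against 2.49% and 1.72% of germ cells, and after thinning to equal depth in 4% and 2.38% against 1.35% and 0.862%, with overlapping intervals.

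The share of cells with a UMI depends on depth, so each cell was also thinned to 9000 UMIs, leaving out shallower cells (58 and 59 germ cells, 3 and 4 feeder cells). Thinned, Hspa1a had a UMI in 2.71% of control germ cells (1.61 to 4.24) and 3.30% of Chd4 siRNA germ cells (2.11 to 4.92); unthinned the shares were 4.70% and 6.23%. Thinned, Hspb1 had a UMI in 3.46% (2.20 to 5.14) and 6.03% (4.38 to 8.07) of germ cells, and unthinned in 7.19% and 10.6%. In the thinned feeder cells it had 0 of 75 and 0 of 84, which allows a share of cells with a UMI, not of cells expressing the gene, of up to 4% and 3.57% when 3 counts are taken as the limit. Unthinned, its feeder shares were 2.56% and 1.14%. The intervals of both germ shares overlap for each gene. Droplets can also carry RNA from other cells. The fibroblast gene Timp1 had a UMI in 21.1% and 20.8% of thinned germ cells, and Dazl in 20.0% and 29.8% of thinned feeder cells. The source of these UMIs was not tested.

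Hsp90aa1, Dnaja1 and Ahsa1 had the highest levels of the heat-inducible group in germ cells of both libraries. Each had a UMI in most germ cells, as did Dnajb1 (55.8% and 57.8% of thinned germ cells). Hsp90aa1, the inducible cytosolic Hsp90, stood at 2109 CPM with control siRNA and 2277 CPM with Chd4 siRNA, with log2 0.11 (0.09 to 0.14). Dnaja1, a J-domain partner of Hsp70, stood at 512 and 552 CPM (log2 0.11, 0.06 to 0.16). Ahsa1, an activator of the Hsp90 ATPase, stood at 268 and 278 CPM (log2 0.05, -0.02 to 0.12). Dnajb1, the J-domain protein that partners Hsp70 in the stress response, stood at 88.1 and 97.8 CPM (log2 0.15, 0.03 to 0.27). The group's 9 members past the minimum ran from -0.28 to 0.15 with a median of 0.05, the same as the median of all genes to 2 decimals. Dnajb4 (59.5 and 62.9 CPM), Hsph1, an Hsp110 exchange factor (50.2 and 50.8 CPM), Chordc1, an Hsp90 cochaperone (44.5 and 41.7 CPM), and Bag3, an Hsp70 exchange factor linked to autophagy (14.1 and 14.2 CPM), all had intervals that include 0. Cryab, the small heat shock protein alpha B-crystallin, was the member that was lower past 1.2-fold, from 14.2 to 11.7 CPM. Its 164 and 143 UMIs gave a log2 ratio of -0.28 with an interval of -0.61 to 0.06, and it was -0.21 in thinned cells and -0.26 where classes needed a 3-fold margin, both inside 1.2-fold.

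Promoters of the list are described because Hsf1 binds inverted repeats of the unit GAA. Members with a match below differ widely in level. Hspa1a, Hspa1b and Hspb1 were low, while Hspe1 and Dnaja1 stood at 2180 and 512 CPM in control germ cells. RefSeq promoter windows (GRCm38.p6, 250 bases before to 50 after the start site) matched 28 of the 36 genes. No window was matched for Cct4, Cryab, Hsf1, Hsp90aa1, Hsp90ab1, Hspa8, Hspa9 and St13. The 3-unit motif GAANNTTCNNGAA, searched on both strands, occurred in 5 of the 28 (17.9%), namely Hsph1, Chordc1, Dnajb6, Hspd1 and Hspe1, against 0.662% of all 27025 genes with a window. The 2-unit motif GAANNTTC, which every 3-unit match contains, occurred in 16 of the 28 (57.1%) against 17.0% of all genes. It was found in 8 of 10 heat-inducible, 3 of 8 constitutive, 3 of 7 TRiC, both mitochondrial and none of the 1 matched heat shock factor window. Examples follow, read 5′ to 3′ along the gene's strand, with matches in capitals (3-unit matches for Hspe1, Dnajb6 and Chordc1, 2-unit matches for the others).
Hspe1, chr1:55088053-55088082, plus strand: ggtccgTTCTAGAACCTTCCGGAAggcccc
Dnajb6, chr5:29735843-29735872, plus strand: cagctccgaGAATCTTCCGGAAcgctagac
Chordc1, chr9:18292259-18292288, plus strand: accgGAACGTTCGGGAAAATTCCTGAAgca
Hspa1a, chr17:34972227-34972286, minus strand: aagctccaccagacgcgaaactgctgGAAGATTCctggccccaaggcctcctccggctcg
Hspa1b, chr17:34959309-34959368, minus strand: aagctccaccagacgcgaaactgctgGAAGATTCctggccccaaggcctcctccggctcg
Hspb1, chr5:135887786-135887845, plus strand: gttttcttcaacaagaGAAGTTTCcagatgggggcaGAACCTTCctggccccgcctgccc
Cct5, chr15:31601847-31601906, minus strand: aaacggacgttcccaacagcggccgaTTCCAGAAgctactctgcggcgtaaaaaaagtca
The Hspa1a and Hspa1b stretches are identical, and the Hspe1 stretch also lies in the window of Hspd1, which is read the other way. Members with a 3-unit match ranged in the germ class from a log2 ratio of -0.09 (Chordc1) to 0.21 (Hspd1). A match describes letters in a window and not a bound site.

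Of the constitutive cytosolic group, Hspa8 differed most between the germ classes. This gene encodes Hsc70, the housekeeping Hsp70 (chromosome 9, 40800984 to 40810087, plus strand, GRCm38). It had 14954 UMIs (1292 CPM) in control germ cells and 19371 UMIs (1585 CPM) in Chd4 siRNA germ cells, a log2 ratio of 0.30 (0.26 to 0.33). The value was just inside 1.2-fold in 3 other settings: 0.25 with TMM scaling, 0.26 with DESeq2 size factors, and 0.26 in cells of 9000 to 30000 UMIs, a range chosen after the data were seen. Of the 90-base words in the last 500 bases of its longest transcript, 24.6% also occur in transcripts of 3 other genes, so part of its reads could have been set aside or shared in the authors' counting. Hsp90ab1, the constitutive Hsp90, stood at 2444 and 2708 CPM (log2 0.15, 0.13 to 0.17).

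The other genes of this group differed in direction. Hspa4, an Hsp110-type exchange factor, stood at 208 and 242 CPM (log2 0.22, 0.14 to 0.29). Fkbp4, the Hsp90-bound immunophilin FKBP52 that steroid receptors use, stood at 572 and 646 CPM (log2 0.17, 0.13 to 0.22). Dnaja2, a J-domain protein, stood at 315 and 348 CPM (log2 0.15, 0.08 to 0.21). These 3 lay above the all-gene median together with Hspa8, Hsp90ab1 and Dnajb6 (380 and 400 CPM, log2 0.07). St13, the Hsp70-interacting protein Hip, was instead lower at 289 and 266 CPM (log2 -0.12, -0.19 to -0.05). Ptges3, the Hsp90 cochaperone p23 (265 and 260 CPM), Cdc37, which brings kinases to Hsp90 (254 and 244 CPM), Hspa14 (91.4 and 90.8 CPM) and Hspa4l (43.3 and 44.7 CPM) had intervals that include 0. The group's median over 11 members was 0.07.

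All 7 measured TRiC subunit genes were higher in the Chd4 siRNA germ class, each with its interval above 0. TRiC is a double ring in which 8 different but related subunits each take a fixed place. Tcp1 went from 505 to 559 CPM (log2 0.15, 0.10 to 0.20), Cct2 from 629 to 707 (0.17, 0.12 to 0.21) and Cct3 from 207 to 240 (0.21, 0.13 to 0.29). Cct4 (chromosome 11, 22990519 to 23003780, plus strand) went from 340 to 421 CPM, with 3939 and 5149 UMIs (log2 0.31, 0.25 to 0.37). It was the only subunit past 1.2-fold, and its lowest value under the other settings was 0.26 with TMM scaling, just inside that fold. Cct5 went from 477 to 561 CPM (0.23, 0.18 to 0.28), Cct7 from 340 to 402 (0.24, 0.18 to 0.30) and Cct8 from 404 to 441 (0.13, 0.07 to 0.18). The range was thus 0.13 to 0.31 with a median of 0.21, and the median stayed between 0.16 and 0.22 over all settings tried. Over all 8248 genes the median was 0.05, and 36.7% of them lay below 0. The longest TRiC transcripts span 1853 to 2484 bases, and the median ratio of all genes was 0.06 both for transcripts of 1000 to 2000 bases and for those of 2000 to 4000 bases. Per germ cell, TRiC genes made up a median of 28.3 of 10000 UMIs (5th to 95th percentile 17.8 to 43.6) with control siRNA and 31.8 (19.8 to 51.4) with Chd4 siRNA, so the distributions over cells overlap for the most part.

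**Figure D2:**
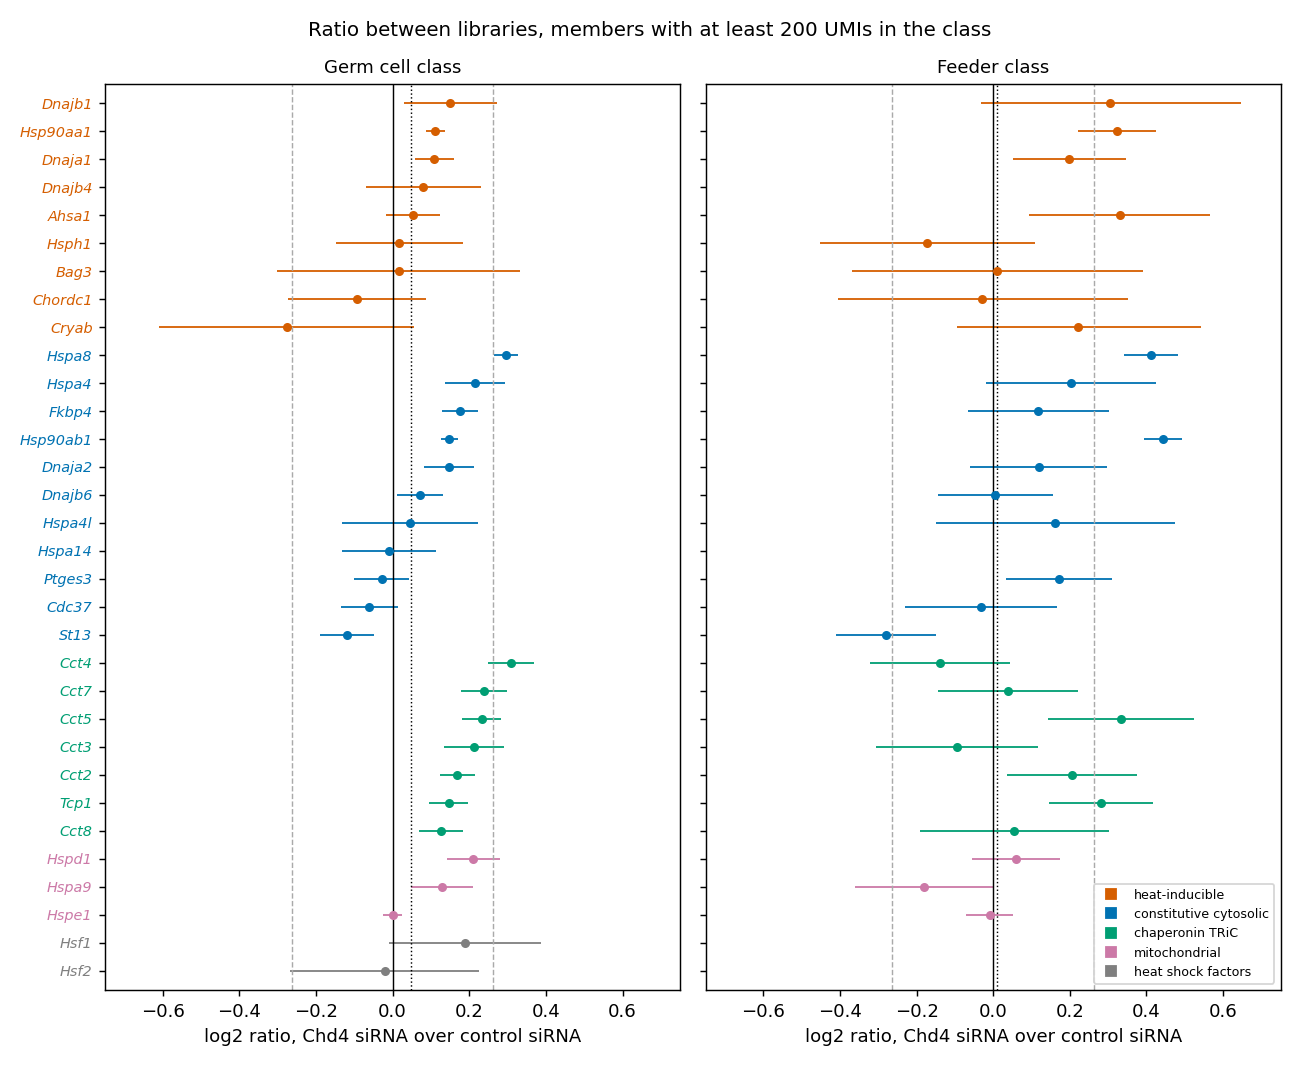
Log2 ratio of CPM, Chd4 siRNA over control siRNA, for members with at least 200 UMIs in the class (germ cells left, feeder cells right; no point where a member had fewer); bars are 95% counting intervals, the dotted line is the median of all genes and dashed lines mark 1.2-fold. In the germ class all 7 TRiC genes lie right of 0, from 0.13 to 0.31, while in the feeder class they run from -0.14 to 0.33.

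The germ class split into 4 clusters, led by Ppfibp2, Esco2, Tmc3 and Gm9112, with 283 and 239, 208 and 195, 144 and 199, and 91 and 128 cells in the control and Chd4 siRNA libraries. The Esco2 cluster also has Top2a, Mki67 and Ccnb1 among its leading genes, and the Gm9112 cluster has Nanos2. Cluster shares differ between the libraries, so the TRiC ratios were computed within each. The median over the 7 genes was 0.32, 0.14, 0.14 and 0.21, beside all-gene medians of 0.03, 0.06, 0.03 and 0.07. Every one of the 28 ratios was above 0, the lowest being Tcp1 at 0.04 in the Gm9112 cluster (-0.10 to 0.18). In that cluster 5 of the 7 exceeded the all-gene median, against 7 of 7 in the other clusters. Intervals included 0 for Cct3 and Cct8 in the Esco2 cluster and for Cct2, Cct3 and Cct8 in the Tmc3 cluster. They also did for Tcp1, Cct3 and Cct7 in the Gm9112 cluster. The share of all genes above 0 was not counted within clusters. Cct4 was at 0.38, 0.25, 0.23 and 0.25, each with its interval above 0. Hspa8 was at 0.33, 0.23, 0.25 and 0.35, also with intervals above 0. Cryab was at -0.81 (-1.48 to -0.17) in the Ppfibp2 cluster on 62 and 31 UMIs, and its interval included 0 in the other clusters.

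**Figure D3:**
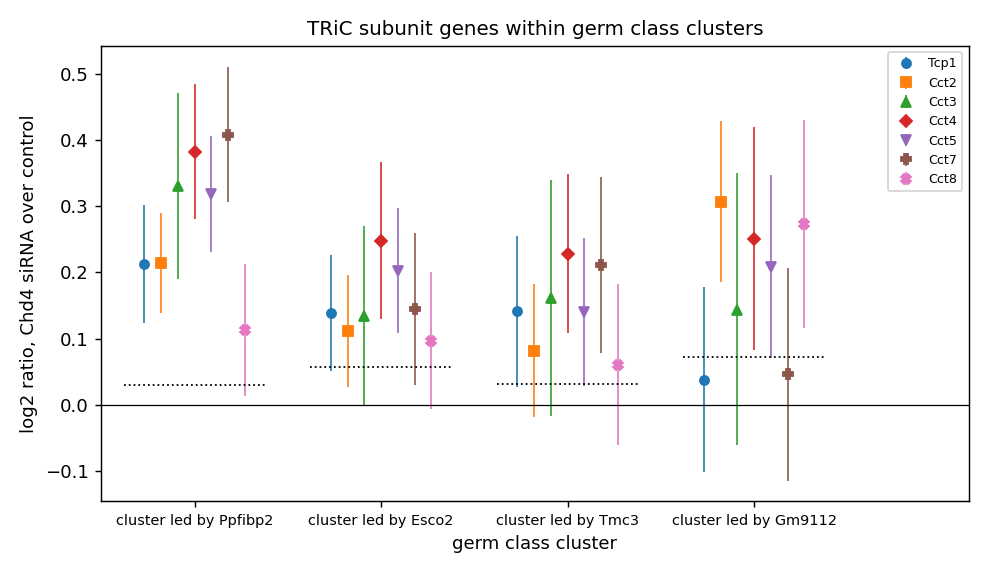
Log2 ratio, Chd4 siRNA over control siRNA, of each measured TRiC subunit gene within the 4 germ class clusters; bars are 95% counting intervals and dotted lines the median of all genes in that cluster. All points lie above 0, from 0.04 to 0.41, and some bars include 0.

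The mitochondrial members split. Hspe1, the lid Hsp10 of the mitochondrial chaperonin, was the same in both germ classes at 2180 and 2182 CPM (log2 0.00, -0.02 to 0.03). Hspd1, the barrel Hsp60 with which it shares a promoter region, went from 258 to 299 CPM (log2 0.21, 0.14 to 0.28). Hspa9, the mitochondrial Hsp70 that pulls proteins through the inner membrane, went from 199 to 218 CPM (log2 0.13, 0.05 to 0.21). The longest Hspe1 transcript has 774 bases, and germ class genes under 1000 bases had a median ratio of -0.01. Hspd1 and Hspa9 have 2423 and 3049 bases, and the median for 2000 to 4000 bases was 0.06. A part of length in the split was not tested. Hspd1 had 0.119 UMIs per Hspe1 UMI (0.114 to 0.123) in the control library and 0.137 (0.132 to 0.142) in the other. The heat shock factors were low: Hsf1, the master regulator of the heat shock response, stood at 33.1 and 37.7 CPM (log2 0.19, -0.01 to 0.39), and Hsf2 at 23.4 and 23.1 CPM (log2 -0.02, -0.27 to 0.23).

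Members differed more between the cell classes than between the siRNAs. Of the 32 members with enough UMIs, 26 had a lower level in the feeder class in each library, with a median log2 ratio, feeder over germ, of -0.97 with control siRNA and -0.96 with Chd4 siRNA. Over all genes these medians were -0.43 (7233 genes) and -0.47 (7521 genes), so most genes were lower in the feeder class too. The exact share of all genes lower there was not counted, so the 26 of 32 cannot be set against it. Past 2-fold, 16 members were higher in the germ class with control siRNA and 14 with Chd4 siRNA, where 33.0% and 35.4% of all genes were. Cryab and Bag3 were the only 2 higher in the feeder class past 2-fold in either library, against 15.9% and 16.3% of all genes. Classes were assigned with 4 marker genes that are not members. Feeder cells had the deeper median (38665 against 15316 UMIs with control siRNA), so depth and cell class cannot be told apart in these ratios.

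Hsp90aa1 was among the members that differed most, at 422 CPM in control feeder cells against 2109 in control germ cells (log2 -2.32, -2.40 to -2.24) and at 528 against 2277 with Chd4 siRNA (-2.11, -2.18 to -2.04). Its constitutive paralog Hsp90ab1 differed much less, at -0.53 and -0.24. Germ cells therefore had 0.863 and 0.841 Hsp90aa1 UMIs per Hsp90ab1 UMI, and feeder cells 0.250 and 0.230. All 7 TRiC genes were higher in germ cells in both libraries, as most genes were. Their ratios ran from -0.87 (Cct3) to -2.33 (Cct8) in the control library and from -0.94 (Tcp1) to -2.41 (Cct8) in the other. Past 2-fold, 6 of the 7 were higher in germ cells in each library, against 33.0% and 35.4% of all genes. Fkbp4 lay at -2.03 and -2.08. The reverse was seen for Cryab, with 46.4 CPM in control feeder cells against 14.2 in control germ cells (log2 1.71, 1.38 to 2.04) and 54.1 against 11.7 with Chd4 siRNA (2.21, 1.89 to 2.53). Bag3 lay at 1.31 in each library, and Hspd1 at 0.45 and 0.30 while its partner Hspe1 lay at -0.75 and -0.76.

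Marker levels in the other class were taken as an indirect guide to RNA from other cells. The summed germ cell markers reached 4.15% and 3.25% of their germ class level in feeder cells, with at most 24.7% and 15.5% for a single marker. The summed fibroblast markers reached 2.92% and 2.61% of their feeder level in germ cells, with at most 34.2% and 27.8% for a single marker. Both sums include genes that set the classes, so the class rule itself can hold these shares down. Hsp90aa1 in feeder cells was at 20.0% and 23.2% of its germ level, Cct8 at 19.8% and 18.9%, and Cryab in germ cells at 30.6% and 21.6% of its feeder level. All lie above the share reached by the summed markers of their class, but not all lie above the highest single marker. Hsp90aa1 and Cct8 were below the highest germ cell marker with control siRNA (24.7%) and above it with Chd4 siRNA (15.5%). In both libraries that marker was Id4, on only 10 and 7 feeder UMIs, so its shares are poorly counted. Cryab was below the highest fibroblast marker in both libraries. With control siRNA that marker was Tagln, on only 4 feeder and 5 germ UMIs. With Chd4 siRNA it was Col5a1, on 160 feeder and 151 germ UMIs. The part of carried-over RNA in the low class was not tested.

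**Figure D4:**
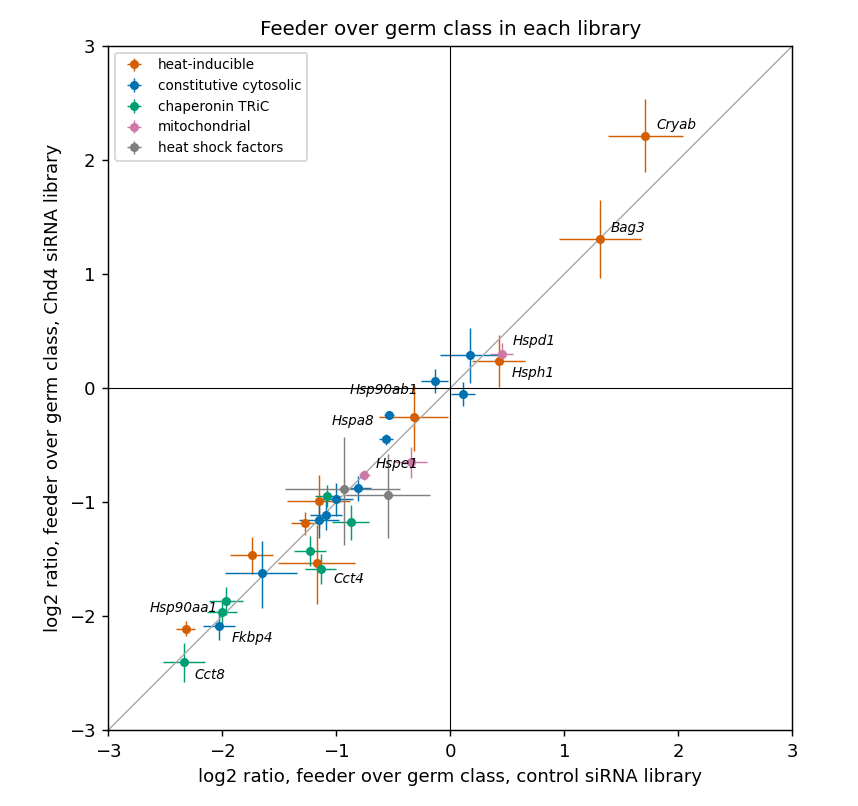
Log2 ratio of CPM, feeder over germ class, in the control siRNA library (horizontal) and the Chd4 siRNA library (vertical) for 32 members, coloured by role group, with 95% counting intervals; the grey line marks equal ratios. TRiC genes, Hsp90aa1 and Fkbp4 lie at the lower left between -0.87 and -2.41, and Cryab and Bag3 at the upper right between 1.31 and 2.21.

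In the feeder class the siRNA comparison showed higher cytosolic Hsp90 and Hsc70 after Chd4 siRNA, but a few cells carried much of it. Of 28 members with at least 200 UMIs, 7 were higher past 1.2-fold and 1 lower, against 14.5% higher and 15.7% lower among 4246 genes. The higher members were Hsp90ab1, Hspa8, Ahsa1, Cct5, Hsp90aa1, Dnajb1 and Tcp1. Hsp90ab1 went from 1687 to 2293 CPM (log2 0.44, 0.39 to 0.49), Hspa8 from 874 to 1163 CPM (0.41, 0.34 to 0.48) and Hsp90aa1 from 422 to 528 CPM (0.32, 0.22 to 0.43). One Chd4 siRNA feeder cell of 46176 UMIs held 872 of the 8260 Hsp90ab1 UMIs, 10.6% of the class, where the top control cell held 3.59%. The same cell topped Hspa8 with 291 of 4189 UMIs and Hsp90aa1 with 161 of 1903. Without the top cell of each library the log2 ratios were 0.31, 0.36 and 0.27. In thinned cells, where deep cells weigh no more than others, they were 0.37, 0.25 and 0.19, and the last 2 are inside 1.2-fold.

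Ahsa1 (80.1 and 101 CPM, log2 0.33, 0.09 to 0.57), Cct5 (122 and 154 CPM, 0.33, 0.14 to 0.52) and Tcp1 (239 and 291 CPM, 0.28, 0.14 to 0.42) stayed past 1.2-fold under every setting tried. Dnajb1 (39.8 and 49.1 CPM, 0.31, -0.03 to 0.65) dropped to 0.18 without its top cells, of which the one in the Chd4 siRNA library held 23 of 177 UMIs. That library's top cell for Hsph1, with 31908 UMIs, held 47 of 216 UMIs, and without top cells Hsph1 lay at -0.45 in place of -0.17. St13 was the lower member, from 312 to 257 CPM (-0.28, -0.41 to -0.15); it was -0.25 with TMM and -0.22 with DESeq2 scaling, and it lay below 0 in the germ class too. TRiC genes ran from -0.14 (Cct4) to 0.33 (Cct5) with a median of 0.06 and 3 of 7 intervals above 0, where 16.8% of all genes lay above 0 and 15.8% below. That median was 0.22 in thinned cells and 0.17 as a mean of per-cell CPM, close to the germ value of 0.21, and the difference between the classes was not tested. Hspe1 was again the same in both libraries, at 1294 and 1286 CPM (-0.01, -0.07 to 0.05). The feeder medians were 0.21 for 8 heat-inducible genes, 0.14 for 10 constitutive genes and -0.01 for the 3 mitochondrial genes, beside 0.01 for all genes.

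Lists of further genes are given here for comparison in germ cells, where 8.28% of all genes were higher past 1.2-fold and 5.7% lower. A place on a list does not show that a gene's product acts as a chaperone or in the compartment named. Of 28 genes with at least 200 UMIs listed as other cytosolic chaperones and cochaperones, 3 were higher past 1.2-fold and 2 lower, with a median of 0.09. The higher ones were Hspb2 (6.91 and 12.9 CPM, log2 0.89, 0.50 to 1.30), Hspb11 (93.7 and 118 CPM, 0.33, 0.22 to 0.45) and Hspa13 (15.6 and 18.9 CPM, 0.28, -0.01 to 0.57). The lower ones were Fkbp5, an immunophilin of the glucocorticoid receptor complex (27.4 and 21.0 CPM, -0.38, -0.62 to -0.14), and Aarsd1 (10.6 and 8.27 CPM, -0.36, -0.76 to 0.03). Prefoldin, which hands actin and tubulin chains to TRiC, and the other chaperonin helpers had 0 of 13 genes past 1.2-fold and a median of 0.02. Of 11 genes listed as other mitochondrial chaperones 0 were past 1.2-fold (median 0.07). Among 16 chaperones of the endoplasmic reticulum 1 was higher, the stress-induced J-domain gene Dnajb9 (81.1 and 99.4 CPM, 0.29, 0.17 to 0.42), which was also higher in feeder cells (28.7 and 64.4 CPM, 1.17, 0.81 to 1.53). Of 9 immediate early genes Dusp1 was past 1.2-fold in germ cells (26.3 and 35.2 CPM, 0.42, 0.21 to 0.64).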

How the data were processed

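Single-cell RNA was measured in 2 droplet libraries, 1 per siRNA. The authors deposited 1 matrix of raw UMI counts for each library. Per the submitters' processing notes, Cell Ranger 2.1.0, Seurat and the mm10 genome were used, in roles that are not given in the sources used here. Of 27998 matrix rows 26893 could be named; the unnamed rows held 12.1% and 12.6% of UMIs and stayed out of totals and values. The last, incomplete cell of each matrix and 2 cells under 1000 UMIs were left out; 1 barcode occurred in both libraries. Germ cells had at least 2 Dazl and Ddx4 UMIs and more of them than of Col1a1 and Fn1, feeder cells the reverse. Scrublet (in scanpy 1.11.5) called 18 and 5 doublets, which were kept and removed as an alternative. UMIs were summed per class and library; ratios have exact conditional binomial intervals, levels exact Poisson and shares Clopper-Pearson intervals, computed with scipy 1.17.1. PCR copies were already collapsed to UMIs, so these intervals cover counting error only. Ratio and interval code was tested on simulated data. Clusters came from 2000 variable genes, 30 principal components, 15 neighbours and leidenalg 0.10.2 at resolution 0.5; they are named by their leading gene. TMM (edgeR 4.0.16) and DESeq2 1.42.0 gave scaling factors only, with no test. Gene positions and transcript lengths are from GENCODE vM21 (GRCm38). The members and all lists were chosen with earlier results of these data known. Named genes are, in each role group, those with the highest CPM, those with the largest ratio by the interval bound nearest 1, and every member past 1.2-fold at 200 UMIs; of the other lists, genes past 1.2-fold, at most 4 a list. The top-cell figures and the setting without them were added after the data were seen.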

Additional observations from a re-analysis of the deposited data

How the results depend on the processing

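Over the settings tried, no member ratio that was past 1.2-fold in the summed values given above changed sign. The germ class had 2 members higher past 1.2-fold; there were 0 with TMM, 1 with DESeq2 scaling, 4 with a minimum of 50 UMIs, 4 with no minimum beyond 1 UMI in each library, and 1 in cells of 9000 to 30000 UMIs. The germ class had 1 member lower; there were 0 in thinned cells, 0 with a 3-fold class margin, 2 with no minimum beyond 1 UMI and 0 at a minimum of 2000 UMIs. The feeder class had 1 member lower; there were 0 with TMM, 0 with DESeq2 scaling, 4 in thinned cells, 2 with a minimum of 50 UMIs, 4 with no minimum and 2 without the top cell of each gene. TMM moved all germ log2 ratios by -0.05 and all feeder ratios by 0.03. The depth range, the 2000 UMI minimum and the top-cell setting were chosen after seeing the data. Group medians were held against the counting error of a mean over their genes. In the germ class the TRiC median of 0.21 was 0.17 with TMM, 0.18 with DESeq2, 0.19 without ribosomal protein genes in the totals and 0.16 in cells of 9000 to 30000 UMIs. The constitutive median of 0.07 was 0.025, 0.038 and 0.046 under the first 3 of these, 0.048 in thinned cells and 0.11 at 2000 UMIs. The mitochondrial median of 0.13 was 0.082 with TMM, and the heat-inducible median of 0.05 was 0.11 at 2000 UMIs. In the feeder class the TRiC median of 0.06 was 0.17 as a mean of per-cell CPM and 0.22 in thinned cells, the constitutive median of 0.14 was 0.20 with DESeq2, and the heat-inducible median of 0.21 was 0.10 with no minimum. The other 133 group medians and counts stayed within that error or within 1.5 times. Among feeder genes, the mean of per-cell CPM put Cryab at -0.14 and Hsph1 at 0.18, opposite in sign to the summed values. Bag3, at 0.01 in the summed values, was at -0.14 by that mean and at 0.67 in thinned cells. Chordc1 ran from -0.32 to 0.10 over the settings. The cause was not tested. With 78 and 88 feeder cells, the depth limits feeder ratios of genes under about 200 UMIs. No paired analysis was possible because each group has 1 library.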

Other observations

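The 15 cells of each library that no marker pair assigned had 84416 UMIs in all with control siRNA and 99324 with Chd4 siRNA. In them the TRiC genes summed to 1812 and 1963 CPM, between the sums of the feeder class (1013 and 1105 CPM) and the germ class (2904 and 3331 CPM). The heat-inducible genes summed to 1374 and 1883 CPM, and the mitochondrial genes to 1860 and 2185 CPM.

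Among feeder cells, 5 of 15 chaperones of the endoplasmic reticulum with at least 200 UMIs were higher past 1.2-fold and 0 lower, where 14.5% of all feeder genes were higher and 15.7% lower, with a median log2 ratio of 0.16. Besides Dnajb9 these were Manf (189 and 267 CPM, log2 0.50, 0.35 to 0.65), Hyou1 (25.9 and 34.1 CPM, 0.40, -0.01 to 0.82), Pdia6 (111 and 143 CPM, 0.36, 0.16 to 0.56) and Calr (325 and 413 CPM, 0.34, 0.23 to 0.46). Of the genes listed as other mitochondrial chaperones, 4 of 7 were lower past 1.2-fold, with a median of -0.28. Hscb (-0.45, -0.78 to -0.13) and Clpp (-0.36, -0.58 to -0.14) had intervals below 0. The intervals of Tomm70a (-0.28, -0.57 to 0.01) and Lonp1 (-0.31, -0.71 to 0.09) included 0. Both lists share these feeder cells with the members, and top cells were not left out for them.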
